A study of Homo sapiens with 6 samples.

Results

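The polyamine genes described here are 10 genes of the deposited table of 40111 genes, picked by symbol: 3 enzymes of polyamine breakdown (SAT1, SMOX and PAOX), 4 of synthesis (ODC1, AMD1, SRM and SMS), the antizymes OAZ1 and OAZ2, and the antizyme inhibitor AZIN1. They were measured by poly(A) RNA-seq in 6 libraries labelled as BE(2)-M17, a human neuroblastoma line of neuroblast character. The controls are 3 libraries with the genotype label NC. The knockdowns are 3 libraries in which CRISPR-Cas9 was used against LINC00894, a long non-coding RNA, and the question is what its loss changes. The labels do not say whether the knockdown cells were a clone or a pool, or whether replicates were grown separately. The error terms and p-values below therefore measure only the spread between libraries, which may be technical.

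Polyamines are the small positively charged amines putrescine, spermidine and spermine, which bind RNA, DNA and phospholipids and which growing cells need. Ornithine decarboxylase (ODC1) makes putrescine, and spermidine and spermine synthases (SRM and SMS) extend it with aminopropyl groups supplied by S-adenosylmethionine decarboxylase (AMD1). SAT1 acetylates spermidine and spermine for export or for oxidation by PAOX, while SMOX oxidises spermine directly. Antizymes, made by a polyamine-stimulated ribosomal frameshift, send ODC1 to the proteasome, and AZIN1, a catalytically inactive relative of ODC1, binds antizymes and frees ODC1. Much of this control acts on translation and protein stability, which these RNA data do not measure.

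The genes were chosen because SAT1 fell in this same contrast. The other 9 were taken as its pathway, so every knockdown-against-control value of the 10 genes is given as a description, without a p-value.

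The libraries held between 22898079 and 48089716 assigned reads. Levels are in FPKM, fragments per kilobase of gene model scaled to the depth of the library, and values for a group are always in the order of replicates 1, 2 and 3. LINC00894 had 2.00, 2.24 and 2.21 FPKM across the controls, against 1.10, 1.30 and 0.867 FPKM across the knockdowns. It shares 159 exonic bases with CXorf40B on the opposite strand, which had more reads (9074 against 3147), so its level may hold reads of that gene. Control 1 stood apart from the other controls: in 60.8% of the 18548 genes tested its level was closer to the average knockdown than to the average of the other controls. The defining neuroblast markers went against the cell label. PHOX2A, which helps to specify sympathetic neuroblasts, was at 0 in all 3 controls and at no more than 0.0389 FPKM in any library. STMN2 stayed at or under 0.0815 FPKM and DBH at or under 0.366 FPKM, and MYCN, which is amplified in BE(2)-M17 as this line is usually described, lay between 0.162 and 0.267 FPKM. GATA3 and ISL1 reached 5.58 and 5.66 FPKM. Of the 11 neuroblast markers listed, TH and ELAVL4 were not analysed here, and the other 9 summed to at most 12.8 FPKM in the controls and to 12.8 to 13.6 FPKM in the knockdowns. The submitters' name for the cells is kept below as a label only. Markers of blood cells differed between libraries: the summed level of 8 red cell genes was 3.61 to 66.0 FPKM in the controls and 374 to 853 FPKM in the knockdowns, with 3 of the 5 genes tested past the threshold. That of 8 neutrophil and monocyte genes was 1.14 to 250 FPKM in the controls, with control 3 highest, and 50.3 to 167 FPKM in the knockdowns. Lymphocyte (6 genes), Schwann and glial (5), fibroblast and endothelial (6) and epithelial markers (5) summed to 2.52 to 4.35, 2.18 to 3.40, 0.348 to 0.998 and 36.3 to 41.5 FPKM over the 6 libraries. The part of these differences in the results below was not tested.

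SAT1, the spermidine/spermine N1-acetyltransferase, was 2.54-fold lower in the knockdown. The controls had 170, 212 and 170 FPKM, which rest on 12330, 25281 and 18218 reads. The knockdowns had 66.2, 72.8 and 76.7 FPKM, which rest on 3762, 5122 and 5477 reads. The groups were far apart, and control 1 matched control 3. In bulk RNA, fewer cells of a type and less RNA per cell cannot be told apart. On the log2(FPKM + 0.1) scale, on which all fold changes below are given, the difference was -1.35 (SE 0.11, n = 3 per group). Its fold change ranked 156 from the lowest among the 18548 genes tested, and 3 from the lowest among the 600 with a control mean of at least 50 FPKM. In the authors' deposited table its log2 fold change was -1.48, and it alone of the 10 genes was in the authors' deposited subset of 1867 genes. Every gene of that subset had a log2 fold change larger in size than those of the other members. Among these members SMS had the largest in size, at -0.70. Their absence from the subset goes with these smaller fold changes and does not show that they were unchanged. SAT1 (ENSG00000130066) spans bases 23783173 to 23786226 of chromosome X (GRCh38, plus strand), and GENCODE 29 gives it 9 transcripts, 4 of them coding. Counts per gene cannot say which of these transcripts changed.

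For SAT1, control 1 lay with the other controls. On the log2 scale control 1 differed from the mean of controls 2 and 3 by -0.16, and the knockdowns differed from control 1 alone by -1.24 and from controls 2 and 3 by -1.40. Leaving out control 1 gave a fold change of -1.40, and over all 19 alternative settings the value stayed between -1.47 and -1.24. Of the 382 genes that fell, 352 had control 1 nearer to the other controls than to the knockdowns. They were called with control 1 among the controls, which favours such genes, so nothing is read from this count.

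The sequence around the transcription start is shown for the 2 chromosome X genes with the lower fold changes, SAT1 and SMS, and for ODC1, which was higher. Windows run from 250 bases before to 50 after the start and come from RefSeq on GRCh38.p14, where 7 of the 10 genes had an entry. The SAT1 window is chrX:23782923-23783222 and the SMS window chrX:21940459-21940758, both on the plus strand. ODC1 has 2 annotated starts on the minus strand, with windows chr2:10448278-10448577 and chr2:10447963-10448262. Capitals mark matches, on either strand, to the CCAAT box, to the GC box letters GGGCGG and to the E-box letters CACGTG.
SAT1: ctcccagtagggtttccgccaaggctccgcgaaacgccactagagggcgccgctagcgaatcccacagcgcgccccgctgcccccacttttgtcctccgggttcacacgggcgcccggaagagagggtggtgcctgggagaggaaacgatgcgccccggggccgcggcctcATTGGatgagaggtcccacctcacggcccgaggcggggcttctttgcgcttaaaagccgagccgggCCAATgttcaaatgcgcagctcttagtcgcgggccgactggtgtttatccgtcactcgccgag
SMS: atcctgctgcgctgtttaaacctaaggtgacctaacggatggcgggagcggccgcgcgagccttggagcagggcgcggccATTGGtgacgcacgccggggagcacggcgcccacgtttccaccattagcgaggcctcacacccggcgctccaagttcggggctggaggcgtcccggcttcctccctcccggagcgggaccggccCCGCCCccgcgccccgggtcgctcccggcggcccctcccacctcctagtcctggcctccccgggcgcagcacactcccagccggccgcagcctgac
ODC1, first window: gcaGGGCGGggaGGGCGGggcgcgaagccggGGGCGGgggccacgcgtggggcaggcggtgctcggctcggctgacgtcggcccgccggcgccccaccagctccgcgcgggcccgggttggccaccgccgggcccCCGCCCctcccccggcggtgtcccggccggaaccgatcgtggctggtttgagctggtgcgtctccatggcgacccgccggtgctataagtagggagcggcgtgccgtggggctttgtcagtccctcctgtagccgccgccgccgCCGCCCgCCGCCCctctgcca
ODC1, second window: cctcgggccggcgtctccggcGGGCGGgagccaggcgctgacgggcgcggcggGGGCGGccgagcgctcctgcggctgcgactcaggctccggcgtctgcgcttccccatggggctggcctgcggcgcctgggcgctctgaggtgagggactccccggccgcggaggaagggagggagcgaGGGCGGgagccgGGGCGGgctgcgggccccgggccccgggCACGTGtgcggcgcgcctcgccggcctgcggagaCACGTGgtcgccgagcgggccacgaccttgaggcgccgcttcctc

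SAT1 had 2 CCAAT boxes, 79 and 13 bases before the start, and no GC box or E-box, whereas SMS had 1 CCAAT box and 1 GC box. The first ODC1 window held 6 GC boxes, and the second held 4 GC boxes and 2 E-boxes. ODC1 is a textbook target of MYC proteins, which bind E-boxes. Of 35116 RefSeq windows of this length, 34.6% held a CCAAT box, 45.0% a GC box and 7.26% an E-box. Further motifs searched were the cyclic AMP response element with letters TGACGTCA, the composite site of C/EBP and ATF proteins with letters TTGCATCA, the AP-1 site with letters TGACTCA and the TATA box with letters TATAAA, each on both strands. They were in 1.85%, 0.866%, 4.95% and 11.5% of windows and in none of the windows printed here. No matches of different motifs overlapped in them. A match is a run of letters and no proof of binding, and its absence says nothing about a factor.

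**Figure D1:**
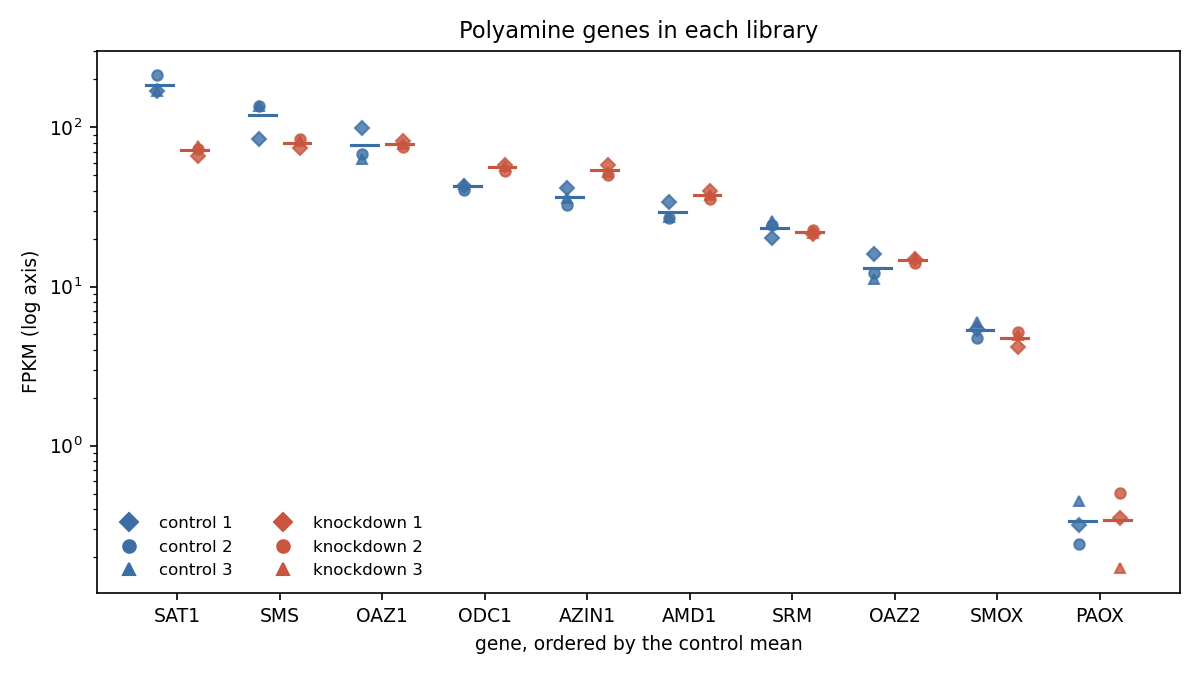
FPKM of the 10 genes in each library on a log axis, with controls in blue, knockdowns in red, 1 symbol per replicate number and a line at each group mean. SAT1 falls from the highest control mean of the 10, 184 FPKM, to 71.9 FPKM, while PAOX stays under 1 FPKM.

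The other enzymes of breakdown differed little between groups. SMOX, the spermine oxidase, measured 5.37, 4.72 and 5.98 FPKM across the controls, against 4.18, 5.19 and 4.98 FPKM across the knockdowns. The groups overlapped, and the log2 fold change of -0.16 (SE 0.13) was of the size of its error and ranged from -0.28 to -0.06 over the alternative settings. PAOX, the oxidase of acetylated polyamines, was barely detected, at 0.319, 0.240 and 0.452 FPKM across the controls, against 0.349, 0.502 and 0.170 FPKM across the knockdowns. PAOX rested on 11 to 44 reads per library, so its log2 fold change of -0.04 does not show that it was unchanged. It alone of the 10 genes failed the minimum of 0.5 FPKM in at least 3 libraries. SAT1 stood at 31.6, 44.9 and 28.4 times the SMOX level in the controls and at 15.8, 14.0 and 15.4 times in the knockdowns.

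Among the synthesis enzymes, ODC1 and AMD1 were higher in the knockdown. ODC1 read 42.9, 40.2 and 44.3 FPKM across the controls, against 57.6, 53.5 and 57.5 FPKM across the knockdowns, with a log2 fold change of 0.40 (SE 0.07). Its groups did not overlap, and control 1 lay between the other controls. AMD1 read 34.1, 27.1 and 27.3 FPKM across the controls, against 39.9, 35.6 and 37.4 FPKM across the knockdowns, with a log2 fold change of 0.36 (SE 0.11). The AMD1 groups did not overlap either, but control 1 was closer to the knockdowns, which exceeded it by 0.14 on the log2 scale and exceeded controls 2 and 3 by 0.47. The authors' gene model for AMD1 implied 10193 bases against 7027 in GENCODE 29, so its FPKM level is less comparable with that of other genes than its fold change.

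For the aminopropyl transferases, control 1 lay with the knockdowns. SMS, the spermine synthase, measured 85.0, 136 and 136 FPKM across the controls, against 73.8, 84.5 and 82.6 FPKM across the knockdowns. The groups did not overlap, but only just, since control 1 sat beside the knockdowns. The log2 fold change of -0.53 (SE 0.19) was made up of a difference of -0.76 from controls 2 and 3 and of only -0.08 from control 1. SMS lies on chromosome X like SAT1, from 21940573 to 21994835. SRM, the spermidine synthase, measured 20.1, 24.2 and 25.8 FPKM across the controls, against 21.3, 22.7 and 21.8 FPKM across the knockdowns. Its groups overlapped, with control 1 as the lowest library and a log2 fold change of -0.08 (SE 0.10). That value was -0.19 without control 1, -0.01 without control 3 and -0.21 with median-of-ratios scaling.

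AZIN1, the antizyme inhibitor, was higher in the knockdown, while the antizymes overlapped. AZIN1 read 41.5, 32.7 and 36.1 FPKM across the controls, against 58.1, 50 and 52.7 FPKM across the knockdowns, with a log2 fold change of 0.55 (SE 0.10). All 3 knockdowns lay above all 3 controls, and control 1 was the highest control. OAZ1, the main antizyme, read 99.6, 68.4 and 63.4 FPKM across the controls, against 81.7, 74.8 and 78.8 FPKM across the knockdowns. Its knockdowns lay inside the range of the controls, control 1 was the highest of the 6 libraries, and its log2 fold change was 0.05 (SE 0.17). OAZ2, a second antizyme, read 16.0, 12.1 and 11.2 FPKM across the controls, against 14.8, 14.1 and 15 FPKM across the knockdowns, again with control 1 highest (log2 fold change 0.18, SE 0.14). The sign of OAZ1 turned with the scaling of the libraries: with median-of-ratios size factors its log2 fold change was -0.07, and that of OAZ2 was 0.05. It also turned with the controls used, from 0.25 without control 1 to -0.02 without control 2 and -0.07 without control 3. OAZ2 moved to 0.33 without control 1 and to 0.07 without control 3.

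**Figure D2:**
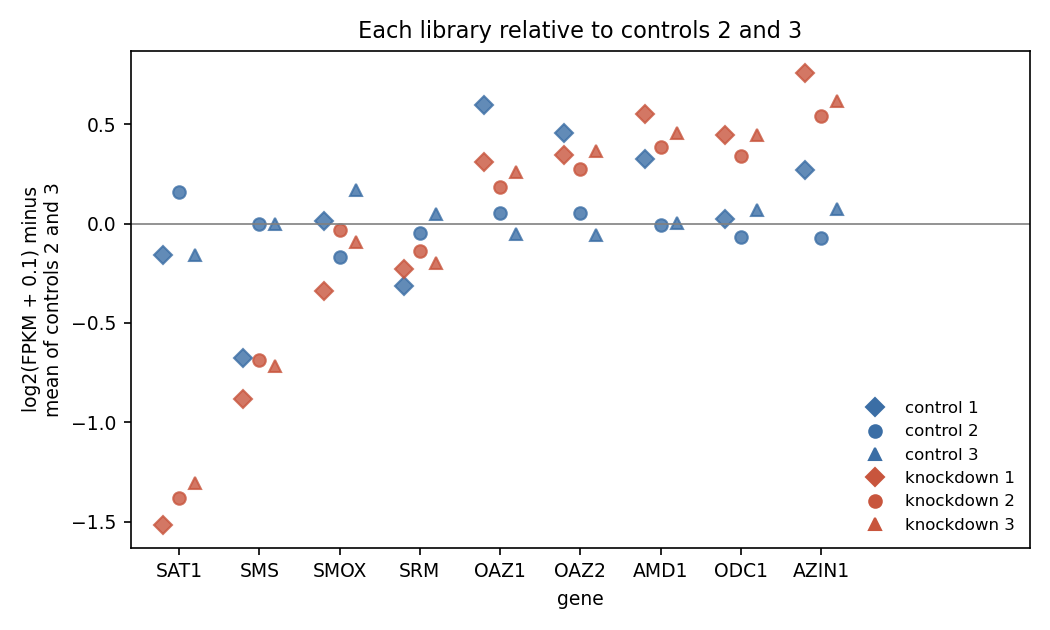
Difference of log2(FPKM + 0.1) from the mean of controls 2 and 3 for the 9 genes tested, with 1 point per library, controls in blue and knockdowns in red. Control 1 (blue diamond) lies with the knockdowns for SMS and above them for OAZ1, but with the other controls for SAT1 and ODC1, where the knockdowns differ from control 1 by -1.24 and 0.39.

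In limma, with Benjamini-Hochberg adjustment over all genes, 3 of the 9 genes tested passed an adjusted p of 0.05, beside 6.20% of all genes: SAT1, lower (2.06% of all genes), and ODC1 and AZIN1, higher (4.14%). In 3 genes the knockdowns lay wholly above the controls and in 2 wholly below, beside 23.9% and 14.3% of all genes (38.2% in either direction). Because this contrast chose the genes, nothing is read from these counts. The median log2 fold change over the 9 genes was 0.05 and over all genes 0.07. With median-of-ratios scaling 2 passed, SAT1 and AZIN1, and ODC1 moved to 0.28. Without control 1, 8 of the 9 passed, SMOX being the exception, beside 8093 of all 18548 genes. Without any other single library 0 of the 9 and 0 of all genes passed in limma. The unadjusted p was below 0.05 in 3676 to 4530 genes in those fits.

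**Figure D3:**
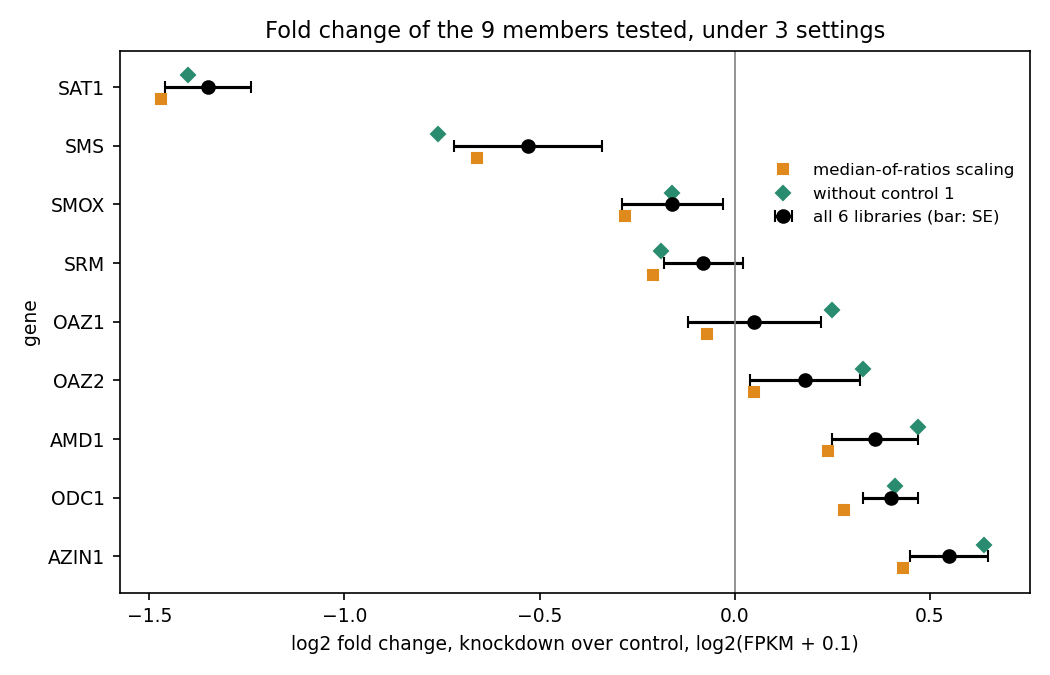
Log2 fold change, knockdown over control, of the 9 genes tested, with all 6 libraries (black, bar: SE), with median-of-ratios scaling (orange) and without control 1 (green). SAT1 lies at -1.35, -1.47 and -1.40, and OAZ1 changes sign between 0.05 and -0.07.

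Since FPKM is a level per length, the genes can be ordered, within the limits of the gene lengths used. The lengths implied for OAZ1 and OAZ2, 3436 and 7671 bases, equal the union of all their exons in GENCODE 29. For OAZ1, 7 of the 11 transcripts in that union are retained-intron transcripts. A longer length lowers FPKM, so the order, and the sums and ratios between genes, depend on these lengths. In the controls SAT1 came first with 184 ± 24.3 FPKM (SD, n = 3), above SMS with 119 ± 29.3 and OAZ1 with 77.1 ± 19.6 FPKM. ODC1 followed with 42.5 ± 2.11, AZIN1 with 36.7 ± 4.40, AMD1 with 29.5 ± 4.0 and SRM with 23.4 ± 2.93 FPKM. The last were OAZ2 with 13.1 ± 2.56, SMOX with 5.36 ± 0.631 and PAOX with 0.337 ± 0.107 FPKM. Library ranges overlapped between SMS and OAZ1, ODC1 and AZIN1, and AZIN1 and AMD1, so the order within those pairs is not settled. In the knockdowns SMS, OAZ1 and SAT1 had 80.3 ± 5.72, 78.4 ± 3.47 and 71.9 ± 5.30 FPKM (SD, n = 3). Each of these ranges overlapped the others, so their order is not settled. SAT1 stood above every other gene of the 10 in the controls, whereas in the knockdowns it overlapped SMS and OAZ1 and stood clear of ODC1 below it. Its mean level ranked 111 among all genes tested there and 377 in the knockdowns.

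The summed level of the 10 genes was lower in the knockdowns, and the net difference was that of SAT1. The sum was 515, 557 and 520 FPKM across the controls, against 418, 414 and 428 FPKM across the knockdowns. Without SAT1 the other 9 genes summed to 345, 345 and 350 FPKM in the controls and to 352, 341 and 351 FPKM in the knockdowns, a quantity computed after the values were seen. The groups overlapped in the sum without SAT1 and not in the sum with it. The share of SAT1 in the sum was 33.0%, 38.0% and 32.7% in the controls and 15.8%, 17.6% and 17.9% in the knockdowns.

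**Figure D4:**
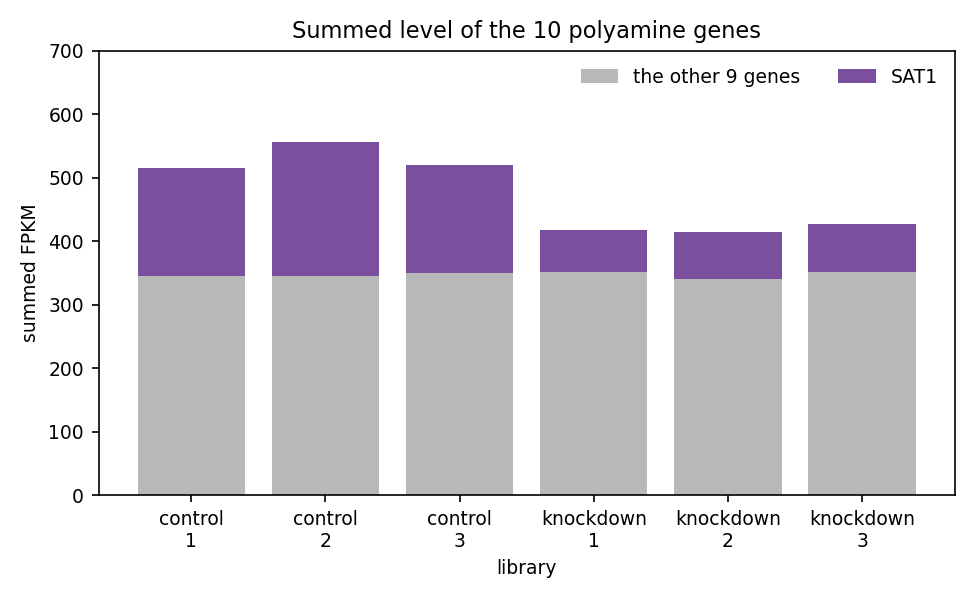
Summed FPKM of the 10 genes in each library, split into SAT1 (purple) and the other 9 genes (grey). The grey part stays between 341 and 352 FPKM in all 6 libraries, although within it SMS is lower and ODC1, AZIN1 and AMD1 are higher in the knockdowns. SAT1 shrinks from 170 to 212 FPKM in the controls to 66.2 to 76.7 FPKM in the knockdowns.

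Ratios between transcripts differed between the groups in both directions. SAT1 per ODC1, the first step of breakdown over the first step of synthesis, was 3.95, 5.27 and 3.83 in controls 1, 2 and 3 and 1.15, 1.36 and 1.33 in the knockdowns. ODC1 per summed antizyme (OAZ1 and OAZ2) was 0.371, 0.499 and 0.594 in the controls and 0.597, 0.602 and 0.613 in the knockdowns. The groups did not overlap for ODC1 per antizyme, but control 3 nearly reached the lowest knockdown, and controls 1 and 2 make up most of the difference. AZIN1 per summed antizyme was 0.359, 0.407 and 0.483 in the controls and 0.602, 0.562 and 0.562 in the knockdowns, with a wider gap. Transcript ratios say nothing of the proteins, whose levels are set after transcription in this pathway.

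Around the 10 genes, a list of 54 pathway genes was examined. Of these, 53 were in the table, 42 passed the filter on low values, 2 rose, 3 fell and 37 did not pass in limma, so that 5 of 42 were called beside 6.20% of all genes. The list's median log2 fold change was 0.05, against 0.07 over all genes. Without control 1, 15 rose and 12 fell, beside 5187 and 2906 of all genes, and without any other single library 0 passed in limma. With no filter on low values 0 passed too.

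Both genes called among the 7 tested in the group listed around precursor supply fell. ASS1, argininosuccinate synthase, which makes the precursor of arginine, read 45.0, 68.2 and 72.8 FPKM across the controls, against 25.6, 30.4 and 27.8 FPKM across the knockdowns. Its groups were clearly apart, with control 1 in between, and the log2 fold change was -1.12 (SE 0.19, limma adjusted p = 0.0379). AHCY, which clears S-adenosylhomocysteine, read 60.2, 69.4 and 65.0 FPKM across the controls, against 45.1, 49.2 and 48.0 FPKM across the knockdowns, with a log2 fold change of -0.45 (SE 0.07, limma adjusted p = 0.0379). MAT2B, the regulatory subunit of methionine adenosyltransferase, missed the threshold at 0.42 (limma adjusted p = 0.0870).

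In the salvage of methylthioadenosine, the by-product of spermidine and spermine synthesis, 1 of 5 genes tested rose. ADI1, an enzyme of this salvage, read 5.17, 3.92 and 3.69 FPKM across the controls, against 6.79, 6.84 and 7.02 FPKM across the knockdowns (log2 fold change 0.69, SE 0.13, limma adjusted p = 0.0417). Control 1 lay almost midway. MTAP, the phosphorylase that starts the salvage, had -0.43 and APIP -0.18, and neither passed (limma adjusted p of 0.145 and 0.177). MTAP in control 1, at 7.12 FPKM, was as low as in the knockdowns, which ranged from 6.90 to 7.16 FPKM.

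Of the 4 genes tested of the hypusine pathway, which uses spermidine to modify the translation factor eIF5A, 1 rose. DOHH, the second enzyme of the pathway, read 6.26, 4.85 and 5.07 FPKM across the controls, against 8.98, 7.82 and 8.30 FPKM across the knockdowns (log2 fold change 0.63, SE 0.12, limma adjusted p = 0.0406). DHPS, the first enzyme, missed the threshold at -0.65 (SE 0.19, limma adjusted p = 0.0808), although its knockdowns, at 0.873 to 1.02 FPKM, all lay below its controls, at 1.26 to 1.87 FPKM. EIF5A had 0.01 and EIF5A2 0.18, both short of the threshold.

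Among 10 genes of transport tested, ATP13A3, a P-type ATPase of polyamine uptake, fell. It read 12.5, 13.3 and 12.3 FPKM across the controls, against 9.69, 9.46 and 9.68 FPKM across the knockdowns (log2 fold change -0.39, SE 0.06, limma adjusted p = 0.0379). Both groups were tight, and control 1 lay between the other controls. SLC3A2, the heavy chain of several amino acid exchangers, missed the threshold at 0.41 (limma adjusted p = 0.0849).

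Of the 7 paralogues and other breakdown enzymes tested, 0 passed in limma, with 1 at an unadjusted p under 0.05, beside 6050 of all 18548 genes, and 0 in limma-voom. SAT2, the paralogue of SAT1, read 30.7, 17.4 and 15.7 FPKM across the controls, against 22.0, 20.9 and 21.5 FPKM across the knockdowns, so that its groups overlapped. AOC3, OAZ3 and AOC2 had 0.58, 0.54 and 0.45 with errors between 0.34 and 0.40. Of 9 factors tied to the control of SAT1 or ODC1, 0 passed in limma, with 3 at an unadjusted p under 0.05, a share like that of all genes, and MAX alone passed in limma-voom. MYC, an activator of ODC1, had -0.36 (SE 0.27) and MAX, its partner, 0.34 (SE 0.08), with limma adjusted p of 0.378 and 0.0553. MYC read 16.0 FPKM in control 1, against 27.6 and 34.3 FPKM in controls 2 and 3 and 17.9 to 21.3 FPKM in the knockdowns.

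**Figure D5:**
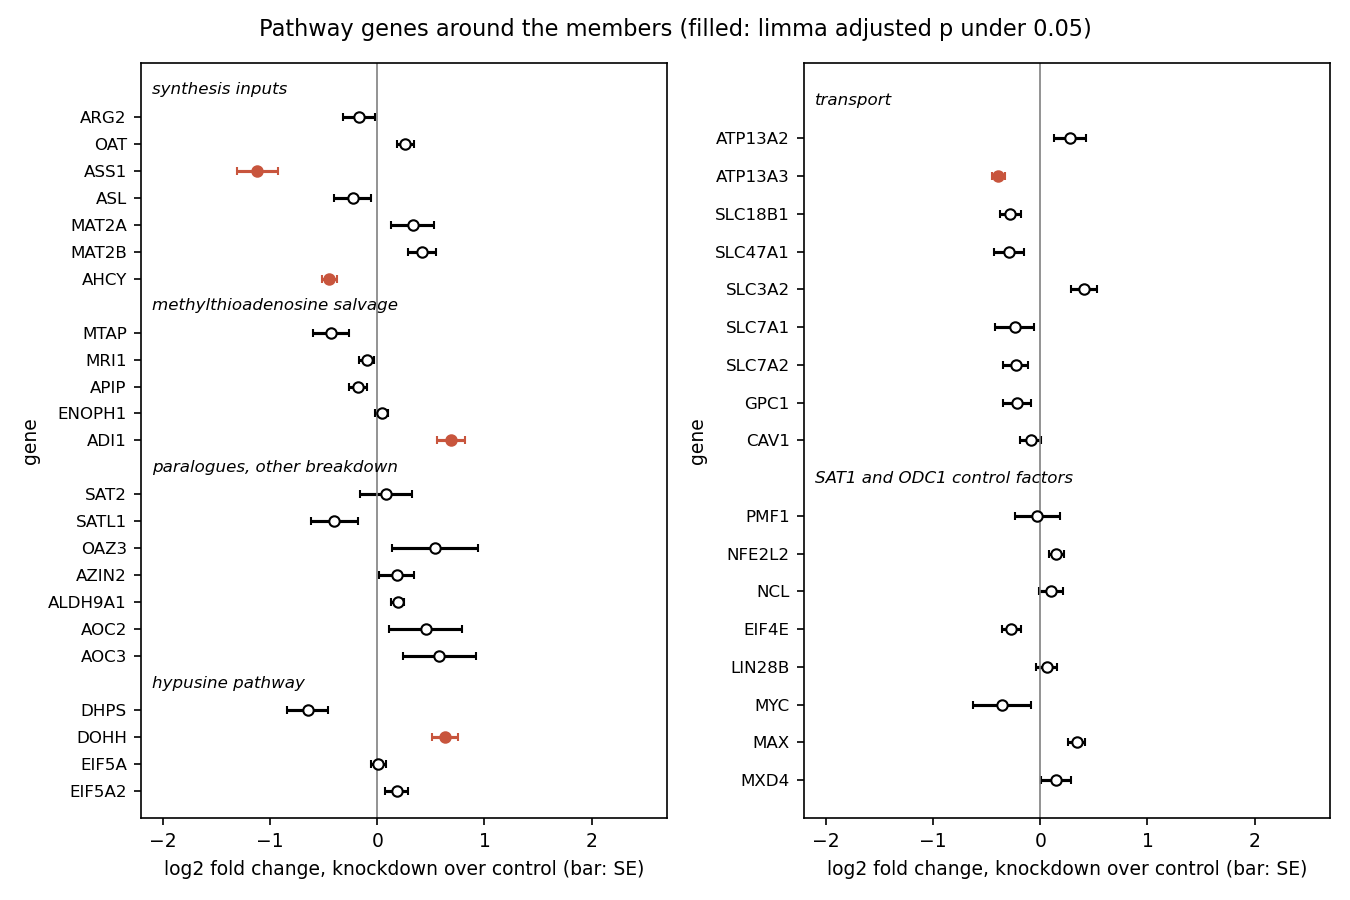
Log2 fold change, knockdown over control, with its SE, of pathway genes tested, grouped by role, apart from genes whose single values are not reported, and filled where the limma adjusted p was under 0.05. ASS1, AHCY and ATP13A3 lie to the left of 0 and ADI1 and DOHH to the right.

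The genes whose levels ran most like SAT1 were sought over the 6 libraries among 7671 named genes with a mean of at least 5 FPKM. By Pearson's r of log2(FPKM + 0.1) the nearest were CCND2 (cyclin D2) at 0.999, ADGRB2 at 0.998, and CDK10, FANCB and ONECUT2 at 0.997, 0.997 and 0.996. With the group means removed their r lay between 0.89 and 0.98. The genes were picked by their r over these same 6 libraries, which favours a high value here too, so nothing is read from it. The most opposite were CENPF, MBTD1, RABEP1, TCTA and CDC40, each at -0.998. These values describe 6 libraries that form 2 groups, so they mostly carry the difference between groups, and 31 genes had an r above 0.99. Their fold changes were smaller than that of SAT1: CCND2 read 14.8, 15.9 and 14.7 FPKM across the controls, against 11.3, 11.8 and 11.8 FPKM across the knockdowns, with a log2 fold change of -0.37 against -1.35. ATF3, the transcription factor named in the study's title, read 239, 352 and 415 FPKM across the controls, against 163, 155 and 167 FPKM across the knockdowns. Control 1 was the lowest control for ATF3 and level with control 3 for SAT1.

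On GRCh38 ODC1 spans bases 10439968 to 10448504 of chromosome 2, AMD1 110874770 to 110895713 of chromosome 6 and SRM 11054584 to 11060024 of chromosome 1. AZIN1 spans 102826357 to 102893864 of chromosome 8, OAZ1 2269509 to 2273490 of chromosome 19 and OAZ2 64687573 to 64703281 of chromosome 15. SMOX spans 4120980 to 4187747 of chromosome 20 and PAOX 133379234 to 133391694 of chromosome 10. Read assignment limits some of these levels, because the library protocol marks no strand. SAT1, SMOX, AMD1, SRM and SMS overlap no other gene in GENCODE 29, while OAZ1 shares 236 exonic bases with JSRP1 and AZIN1 shares 344 with AZIN1-AS1, both on the opposite strand. OAZ1 also shares 220 with AC005258.1 and OAZ2 shares 554 with AC100830.3, which were not analysed here. JSRP1 and AZIN1-AS1 had 724 and 446 reads over the 6 libraries, against 52241 for OAZ1 and 52785 for AZIN1. PAOX shares 158 exonic bases with a protein-coding gene that had 314 reads, more than the 152 of PAOX, so its level is uncertain. Processed pseudogenes of AMD1 and SRM in the table held at most 41 reads each, and how the authors' counting split reads between copies is not given in the sources used here.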

How the data were processed

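RNA was enriched with oligo-dT beads and cDNA made without strand information, per the labels' protocols, and the aligner was HISAT2, per the submitters' processing notes. For the counter, genome build and annotation, nothing is given in the sources used here. Deposited by the authors were FPKM per library, the group means of size-factor-scaled reads (a signal), log2 fold changes and p-values. Whole reads were recovered from the deposited FPKM and group means: within 0.1 read, 100% of values above 0 and up to 1000 reads came out whole. Depth was 22898079 to 48089716 reads per library. Its counting error is small for all members but PAOX.

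Genes reaching 0.5 FPKM in 3 or more libraries entered limma (version 3.58.1, R 4.3.3, mean-variance trend) on log2(FPKM + 0.1), a scale that understates the change of low genes, with a two-sided test of group alone and Benjamini-Hochberg adjustment over 18548 genes. The procedure was checked on simulated data. These had the same spread for every gene and no outlying library, so the check does not cover the influence of control 1. Alternatives were median-of-ratios scaling, no filter or a filter at 1 CPM, a pseudocount of 1 FPKM, no trend, limma-voom on the recovered reads, each library left out, the replicate number as a block, and, added after seeing the data, limma-voom with each library left out. Positions are from GENCODE 29, which held 96.3% of the gene IDs. Python 3.11.15 with pandas 2.3.3 was used. Members, lists and tests were chosen with earlier results of these data known. The rule named all members, LINC00894, ATF3, pathway genes past the threshold, the 3 largest fold changes per pathway subgroup, and the 5 genes most and least correlated with SAT1. Other genes are named beside these for comparison, after their values were seen. Values of single genes are left out for a few members of the pathway and marker lists, which stayed in the fits and counts.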

Additional observations from a re-analysis of the deposited data

How the results depend on the processing

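The log2 fold change of SAT1 stayed between -1.47 and -1.24 under all 19 alternatives. The signs of the other tested members held as well, except OAZ1 in 5 alternatives, and ODC1 moved to 0.28 with median-of-ratios scaling. ASS1, AHCY, ATP13A3, ADI1 and DOHH kept their direction in all 19, with limma adjusted p up to 0.170. Each of these genes passed the threshold in only 6 of the 19. The counts of calls moved far more. The 1150 genes called, 3 members and 5 pathway genes became 42, 1 and 0 with no filter, 91, 1 and 0 with no mean-variance trend, and 3130, 4 and 9 with limma-voom. The filter at 1 CPM gave 2085 genes. Median-of-ratios scaling called 338 genes higher and 495 lower, in place of 768 and 382, and moved the median of all genes from 0.07 to -0.05. Leaving out each library in turn gave between 0 and 8093 genes, 0 and 8 members, and 0 and 27 pathway genes in limma, the high ends without control 1. In limma-voom, with each library left out, the ranges were 0 to 9413, 0 to 8 and 0 to 33. Without control 3, limma-voom called 15 genes, SAT1 among them. Why the counts moved was not tested. With the replicate number as a block, 0 genes, 0 members and 0 pathway genes passed in limma, with 5990 genes at an unadjusted p under 0.05. The labels do not say that the numbers pair the libraries, so the main fit had no block. The deviations of same-numbered libraries correlated at 0.15, 0.08 and 0.04. Controls 1 and 2 correlated best with the knockdown of their own number, and control 3 with knockdown 2, at 0.1. These low values do not settle whether the libraries are paired.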
